A study of Mus musculus with 16 samples.

Results

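The genes of oxidative phosphorylation were followed in mouse bone marrow-derived macrophages (BMMs) activated in the presence or absence of a gamma-secretase inhibitor. The members were taken by gene symbol: every row whose name begins with Nduf, Uqcr, Cox4 to Cox8, Atp5, mt-Nd, mt-Co, mt-Cyt or mt-Atp, together with Sdha to Sdhd, Uqcc2 and Cyc1, and without rows marked as pseudogenes. This rule gave 107 of the 47069 genes in the table, of which 94 lie on nuclear chromosomes and 13 are encoded by the mitochondrial DNA. The BMMs came from C57BL/6 mice of 8 to 10 weeks, were grown in L929-conditioned medium for 7 days, were primed overnight with IFNγ (10 ng/mL), and were activated for 1 hr with LPS (100 ng/mL) and immune complexes of ovalbumin and IgG. The DMSO group received the vehicle (0.01%), and the GSI group received the gamma-secretase inhibitor DAPT at 25 μM. The paper's methods give both as added overnight ahead of activation, and some of its figure legends give a shorter pretreatment. The data do not tell whether a difference between the groups arose before or during activation. GSI blocks the cleavage that releases the active part of Notch receptors, and it also blocks the cleavage of other gamma-secretase substrates. Priming, LPS and immune complexes were common to both groups, so the data hold no resting BMMs and no untreated control.

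Each group had 2 replicates, each with 4 numbered columns. The labels do not say what the 4 numbers mark; the columns of a replicate differed by about sampling noise, were taken as runs of 1 library and were summed, which gave 4 libraries with 42694655 to 56932059 counts. The labels do not say whether the replicates came from separate mice or cultures, so the test measures only the spread between these libraries. At these totals 3 counts correspond to 0.0529 to 0.0697 CPM (counts scaled to the same total in every library). Of 8 rows of macrophage markers, 6 were lower with GSI (Csf1r by 0.56 and Adgre1 by 0.28 on the log2 scale), Mertk was higher, and their summed level was 10400 and 10700 CPM with DMSO and 8400 and 9190 CPM with GSI. Adgre1 was no longer called without DMSO replicate 2 (-0.25) or GSI replicate 1 (-0.16), nor was the scarcer of the 2 Itgam rows (-0.67 and -0.50, from -0.88), and Lyz2 (-0.23) was not called without DMSO replicate 1 (-0.23), DMSO replicate 2 (-0.24) or GSI replicate 1 (-0.17). Markers of other cells were scarce in every library: erythroid and mast cell markers had no count, granulocyte markers summed to 0.697 to 1.43 CPM, B cell markers to 0.344 to 0.535 CPM, T or NK cell markers to at most 0.0414 CPM and stromal markers to at most 0.106 CPM. Dendritic cell markers summed to 3.69 to 5.25 CPM, nearly all from Xcr1, which was lower with GSI by 0.42 (log2), a call lost without DMSO replicate 1 (-0.36) or GSI replicate 2 (-0.35). The part of the macrophage markers' change in the results that follow was not tested, and in bulk RNA fewer cells of a type and less RNA per cell cannot be told apart.

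Oxidative phosphorylation is carried out by 5 protein complexes of the inner mitochondrial membrane. Complexes I and II take electrons from NADH and succinate, complex III passes them from ubiquinol to cytochrome c, and complex IV hands them to oxygen. Complexes I, III and IV pump protons, and complex V, the ATP synthase, uses the returning protons to make ATP. Complexes I, III, IV and V mix subunits from both genomes, while complex II is made from nuclear genes alone. Nuclear subunits are transcribed singly from their own promoters, whereas the mitochondrial genes are cut out of long transcripts that cover most of the mitochondrial DNA. Activated macrophages are known to lower respiration in favour of glycolysis in the hours after LPS.

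Nuclear and mitochondrial members moved in opposite directions with GSI. Of the 94 nuclear members, 89 had enough counts for the test, and 67 of these were higher with GSI, none was lower, and 22 were not called. All 7 mitochondrial members that could be tested were lower. The call was an FDR under 0.05, by Benjamini-Hochberg over 13211 genes and from the quasi-likelihood test of edgeR, of which 19.0% were called higher and 21.9% lower, or 40.8% in either direction. Thus 75.3% of the tested nuclear members were called higher, against 19.0% of all genes. Their median log2 fold change was 0.28, a fold of 1.22, with a range of -0.64 to 1.88, beside a median of 0.01 over all genes tested. The mitochondrial members had a median of -0.39, a fold of 0.761, with a range of -0.64 to -0.29. With each library left out in turn, this median ran from -0.54 (without GSI replicate 1) to -0.26 (without GSI replicate 2). A nuclear member past a log2 fold change of 1.5 was found in 1 case, Cox6a2, and 2.91% of all genes passed that size.

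**Figure D1:**
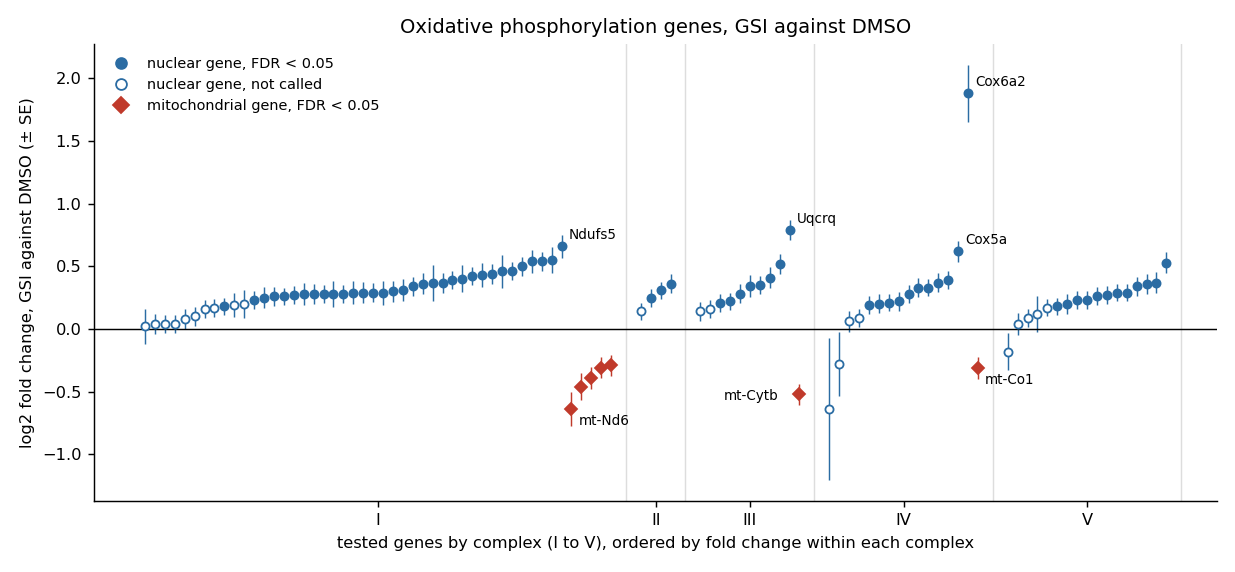
Log2 fold change with GSI against DMSO (vertical axis, with its standard error) of the 96 tested members, ordered within complexes I to V. Blue circles are nuclear genes, filled where the FDR was under 0.05, and red diamonds are mitochondrial genes; 86 of 89 nuclear genes sit above 0 and all 7 mitochondrial genes below it.

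Most nuclear changes were small, and some moved with single libraries. The libraries of the GSI group were both above those of the DMSO group for 77 of the 89 tested nuclear members and both below for 1, where 35.8% and 34.8% of all genes were so separated upward and downward. Among the 75 genes that encode subunits, with the tissue isoforms of complex IV left out, 60 were higher, 15 were not called, and all had a fold change above 0, from 0.04 to 0.79 on the log2 scale. When each library was left out in turn, 48 to 62 nuclear members were called higher and none lower, and 36 of the 67 kept their call in all 4 cases. The 2 replicates of a group differed by a median of 0.07 (DMSO) and 0.10 (GSI) on the log2 scale over the nuclear members.

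The 13 mitochondrial genes split sharply by their counts. In the order of the chromosome, mt-Nd1, mt-Nd2, mt-Co1, mt-Nd4, mt-Nd5, mt-Nd6 and mt-Cytb had from 630 to 119214 counts in a library. The remaining 6, mt-Co2, mt-Atp8, mt-Atp6, mt-Co3, mt-Nd3 and mt-Nd4l, had 0 or 1 count in every library, although mt-Co2 and mt-Co3 encode catalytic-core subunits of complex IV beside the abundant mt-Co1. They are listed near 0 and no level or fold was taken from them. Nuclear chromosome 1 carries a near-identical stretch of the mitochondrial genome, annotated in mm10 as the pseudogenes Gm28439, Gm10222, Gm28438, Gm28437, Gm10925, Gm28661 and Gm29216 on the minus strand between positions 24611535 and 24616197. The share of a gene's 50-base windows that also occur in transcripts of another annotated gene was 100% for mt-Co2, 99.86% for mt-Co3, 99.53% for mt-Atp6, 98.79% for mt-Nd4l and 97.99% for mt-Nd3. It was 62.23% for mt-Nd4 and 51.14% for mt-Co1, 8.19% for mt-Nd2, 7.61% for mt-Nd5, and 0 for mt-Nd1, mt-Cytb and mt-Nd6.

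The sequences show how close these copies are. The first pair below is the start of mt-Co3 (chrM:8607-8726, plus strand) and of its chromosome 1 copy Gm28437 (chr1:24613852-24613971, minus strand), which are the same over all 783 aligned bases of the gene. The next pair is mt-Nd3 (chrM:9459-9578) and Gm28438 (chr1:24613000-24613119), which differ at 1 of 345 aligned bases. The last pair is an inner part of mt-Co1 (chrM:6381-6500) where its copy Gm29216 (chr1:24616078-24616197) begins, with 6 mismatches in 492 aligned bases, all 6 near this edge. Coordinates are those of mm10, sequences are from the GENCODE M21 transcripts, and capitals mark the bases that differ within a pair.
mt-Co3: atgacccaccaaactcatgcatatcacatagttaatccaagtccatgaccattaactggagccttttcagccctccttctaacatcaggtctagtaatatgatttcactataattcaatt
Gm28437: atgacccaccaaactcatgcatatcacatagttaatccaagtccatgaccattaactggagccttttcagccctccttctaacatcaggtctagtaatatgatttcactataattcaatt
mt-Nd3: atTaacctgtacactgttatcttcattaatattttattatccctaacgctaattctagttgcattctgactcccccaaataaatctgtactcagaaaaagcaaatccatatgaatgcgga
Gm28438: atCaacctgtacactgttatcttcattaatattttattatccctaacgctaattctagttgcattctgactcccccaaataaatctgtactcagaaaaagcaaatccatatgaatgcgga
mt-Co1: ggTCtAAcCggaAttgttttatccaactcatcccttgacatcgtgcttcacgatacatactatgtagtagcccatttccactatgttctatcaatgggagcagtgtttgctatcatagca
Gm29216: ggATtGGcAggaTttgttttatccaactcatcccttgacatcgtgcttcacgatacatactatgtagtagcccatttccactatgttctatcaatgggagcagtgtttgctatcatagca

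The copies themselves had few counts. Gm29216, which differs from mt-Co1 at its edge, had 24, 48, 40 and 26 counts in DMSO 1, DMSO 2, GSI 1 and GSI 2, while the copies identical to mt-Co2, mt-Atp6 and mt-Co3 had at most 14 counts and Gm28438 had none. A read that matches both places equally well has no single position, and how such reads were counted is not given in the sources used here. mt-Atp8 is an exception to the pattern, with no count and no window in the transcripts of another gene's annotated copy; its gene overlaps mt-Atp6, and the chromosome 1 sequence between the annotated copies was not analysed here. The part of the shared sequence in the 6 counts near 0 was not tested. For mt-Nd4 and mt-Co1, the counts may therefore stand for part of the gene only.

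**Figure D2:**
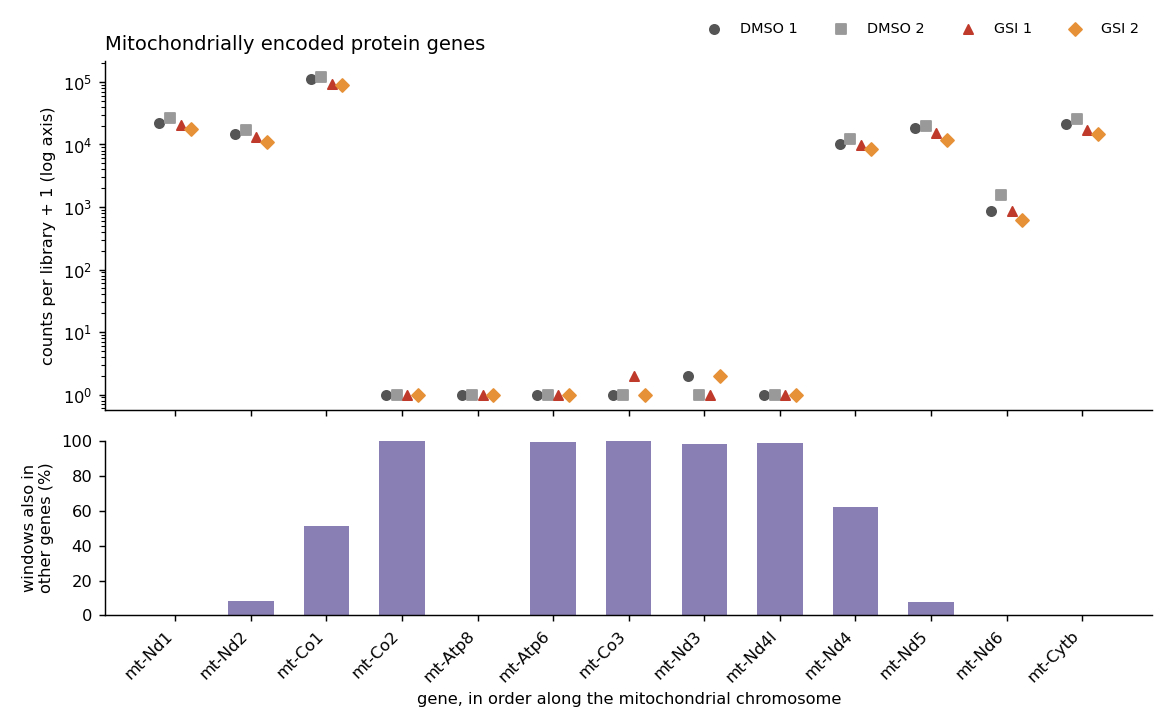
Upper panel, counts per library plus 1 on a log axis for the 13 mitochondrial protein genes in chromosome order, with DMSO libraries in grey and GSI libraries in red and orange; lower panel, the percent of each gene's 50-base windows found in transcripts of another gene. The 6 genes at 0 or 1 count include the 5 with the highest shared percent, and mt-Atp8 is at 0 with no shared window.

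Of the mitochondrial genes with counts, mt-Co1, which encodes the catalytic subunit of complex IV, stood highest. Its level was 2570 and 2100 CPM with DMSO and 1940 and 1830 CPM with GSI. Both GSI libraries lay below both DMSO libraries, and the log2 fold change was -0.31 ± 0.0871 (SE, edgeR FDR = 0.00756). mt-Cytb, the cytochrome b of complex III, fell from 499 and 445 CPM to 357 and 302 CPM, by 0.52 ± 0.0838 on the log2 scale (edgeR FDR = 4.57e-05). The groups were again separate, and mt-Cytb kept its call without any single library, at -0.65 to -0.40.

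The other 5 encode membrane subunits of complex I. mt-Nd1 was at 515 and 469 CPM with DMSO and 430 and 363 CPM with GSI (log2 fold change -0.31 ± 0.0825). mt-Nd2 was at 343 and 305 CPM against 270 and 223 CPM (-0.39 ± 0.0856). mt-Nd4 was at 238 and 219 CPM against 206 and 168 CPM (-0.29 ± 0.0848). In each of these genes the lower DMSO library was above the higher GSI library. mt-Nd5 was at 423 and 342 CPM against 319 and 238 CPM (-0.46 ± 0.108). mt-Nd6, the only protein gene on the other strand of the mitochondrial DNA, was at 19.7 and 27.7 CPM against 17.7 and 12.8 CPM (-0.64 ± 0.136). Its change was numerically the largest of the 7 and also the least even, since the replicates with DMSO moved apart in the direction opposite to the other 6 genes. The libraries were made with a kit that marks the strand, but whether the counting used it is not given in the sources used here. It is therefore not known whether the mt-Nd6 counts hold RNA of the opposite strand, and 14 bases of the gene overlap mt-Nd5.

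Single libraries bore on some of these calls. Without DMSO replicate 1, mt-Co1 was at -0.16 and mt-Nd4 at -0.23, and without GSI replicate 2, mt-Nd1 was at -0.19 and mt-Nd4 at -0.15, all no longer called; without GSI replicate 1, mt-Nd4 was at -0.44 and called. mt-Nd2, mt-Nd5, mt-Nd6 and mt-Cytb kept their calls in all 4 cases, but the values moved. mt-Nd2 ranged from -0.54 to -0.26. mt-Nd5 was at -0.30 without DMSO replicate 1, -0.61 without DMSO replicate 2, -0.68 without GSI replicate 1 and -0.26 without GSI replicate 2. mt-Nd6 was at -0.86, -0.38, -0.90 and -0.43 in the same order. DESeq2 called 5 of the 7 lower, without mt-Nd5 and mt-Nd6. Replicate 2 was below replicate 1 over the mitochondrial members by a median of 0.17 (DMSO) and 0.27 (GSI) on the log2 scale, a spread wider than that of the nuclear members.

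To compare levels between mitochondrial genes, CPM were divided by the number of 50-base windows not found in other genes. On this scale, in CPM per 1000 such windows, the DMSO and GSI means were 3200 and 2580 for mt-Co1, 542 and 437 for mt-Nd1, 456 and 373 for mt-Nd4, 431 and 301 for mt-Cytb, 357 and 271 for mt-Nd2, 233 and 170 for mt-Nd5, and 50.4 and 32.4 for mt-Nd6. mt-Co1 was above all the others in each library. This scale leaves out the shared windows, and whether reads in them were counted is not known. Over the full length, in CPM per 1000 bases, mt-Nd4 was at means of 166 (DMSO) and 136 (GSI), below mt-Cytb at 413 and 288, so the order of these genes depends on the scale. The mitochondrial ribosomal RNAs, which come from the same strand as mt-Nd1, were counted at low levels. The libraries were made with an mRNA kit, so levels compared between mitochondrial genes are those of the RNA it took up. How fully it takes up each mitochondrial RNA was not tested. The small ribosomal RNA mt-Rnr1 was at 110 and 104 CPM with DMSO and 88.4 and 89.4 CPM with GSI and was lower (-0.26, edgeR FDR = 0.00487), a call lost without DMSO replicate 1 (-0.23). The large one, mt-Rnr2, was at 120 and 130 CPM against 105 and 121 CPM and was not called (-0.14, edgeR FDR = 0.152), with -0.25 to -0.04 when a library was left out.

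The opposite movement of the 2 genomes was seen as shares of all counts. The mitochondrial members held 0.465% and 0.390% of the counts with DMSO and 0.353% and 0.313% with GSI. The mean share went from 0.427% to 0.333%, a change of -22.0%. The difference was -0.0941 percentage points, or -0.0566 without DMSO replicate 1 and -0.132 without DMSO replicate 2. The nuclear members held 0.724% and 0.717% with DMSO and 0.853% and 0.862% with GSI, a change of 19.0%. The groups did not overlap in either share. By complex, the nuclear share was larger with GSI by 19.9% for complex I, 18.7% for complex II, 23.7% for complex III, 20.4% for complex IV and 16.2% for complex V. These are shares of a fixed total, given as values and not tested. Of the 13 mitochondrial members, the 6 near 0 add almost nothing to them.

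**Figure D3:**
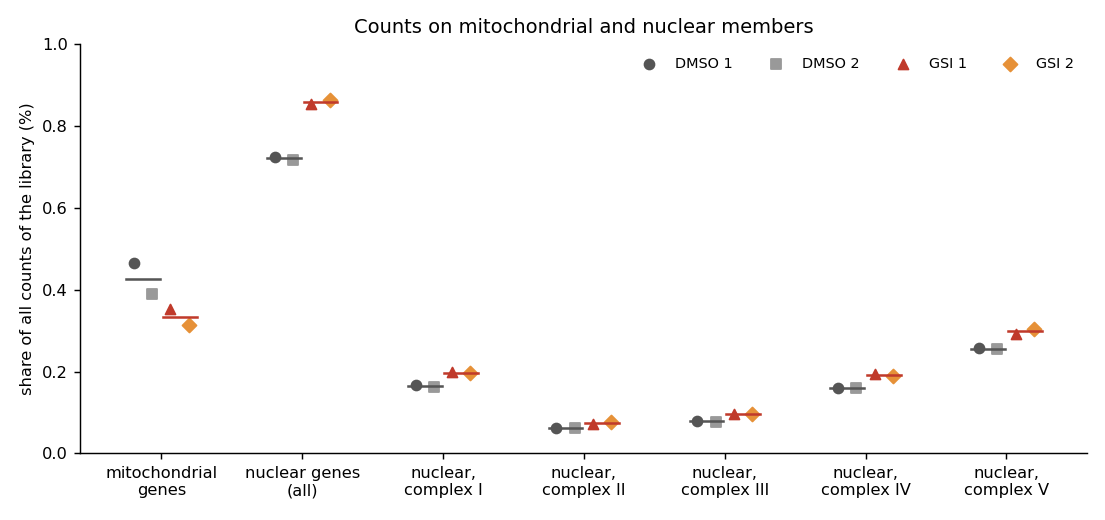
Share of all counts of a library (vertical axis, percent) on the mitochondrial members, on all nuclear members and on the nuclear members of each complex; each point is a library and horizontal lines are group means. The GSI libraries sit below the DMSO libraries for the mitochondrial genes (0.353% and 0.313% against 0.465% and 0.390%) and above them in the 6 nuclear columns.

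Ratios within a complex do not depend on the total of a library. In complex I, the mitochondrial counts were 0.962 and 0.863 times those of the 36 nuclear subunits with DMSO and 0.645 and 0.529 times with GSI. In complex III, mt-Cytb stood at 0.655 and 0.587 times the 9 nuclear subunits with DMSO and at 0.379 and 0.318 times with GSI. In complex IV, the mitochondrial counts were 1.88 and 1.49 times those of 11 nuclear subunits with DMSO and 1.13 and 1.07 times with GSI, nearly all of it from mt-Co1. The GSI mean was thus 0.644, 0.561 and 0.654 of the DMSO mean for complexes I, III and IV, with no overlap between groups in any of them. Complex V gave no ratio because mt-Atp6 and mt-Atp8 had no counts. In complexes I and IV, mt-Nd3, mt-Nd4l, mt-Co2 and mt-Co3 had 0 or 1 count in every library. The ratios therefore cover the counted genes only.

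Complex I has the most members. Of its 43 nuclear members, 33 were higher with GSI and 10 were not called, with a median log2 fold change of 0.29. The division by role was uneven in count: 25 of 29 accessory subunits and 5 of 7 assembly factors were called, against 3 of the 7 nuclear core subunits, which form the arm that passes electrons from NADH to ubiquinone; whether these shares differ was not tested. Ndufs7, the core subunit that holds the last iron-sulfur cluster before ubiquinone, was at 38.1 and 38.0 CPM with DMSO and at 52.8 and 58.3 CPM with GSI (log2 fold change 0.54 ± 0.0759, edgeR FDR = 8.26e-06). Ndufv2 went from 73.2 and 66.3 CPM to 89.2 and 80.4 CPM (0.28), a call lost without DMSO replicate 2 (0.21) or GSI replicate 1 (0.21), and Ndufs3 from 56.0 and 51.7 CPM to 63.2 and 66.9 CPM (0.27), a call lost without DMSO replicate 2 (0.21). The remaining core subunits were not called.

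Among the accessory subunits of complex I, Ndufs5 stood first. It was at 12 and 11.1 CPM with DMSO and 18.2 and 18.3 CPM with GSI, with a log2 fold change of 0.66 ± 0.0908 (edgeR FDR = 6.69e-06). The pairs of replicates were close to each other and far apart between groups. A share of 21.71% of the Ndufs5 windows also occurs in BC002163, a gene with 19 to 46 counts in a library that was higher as well (0.84), beside 516 to 902 counts for Ndufs5. Ndufab1, the mitochondrial acyl carrier protein, which also serves fatty acid synthesis, went from 15.6 and 15.4 CPM to 20.8 and 24.1 CPM (0.54 ± 0.0913). Ndufa11, a membrane subunit, had a mean of 29.8 ± 0.307 CPM (SD, n = 2) with DMSO and of 42.1 ± 1.20 CPM with GSI (0.50 ± 0.0753). Of the assembly factors, which help to build the complex and then leave it, Ndufaf4 was at 7.55 and 6.77 CPM with DMSO and 10.8 and 10.2 CPM with GSI (0.55 ± 0.107), Ndufaf7 rose by 0.40 and Ndufaf3 by 0.30. Ndufs7, Ndufs5, Ndufab1, Ndufa11 and these 3 assembly factors kept their calls without any single library.

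The 3 smallest called changes among the accessory subunits were lost when single libraries were left out. Ndufa9 (0.18) lost its call whichever library was left out (0.17 to 0.20), Ndufb8 (0.23) without DMSO replicate 1 (0.20), and Ndufa1 (0.25) without DMSO replicate 2 or GSI replicate 1 (0.17 each). Of the 3 smallest among the 5 called assembly factors, Ndufaf3 kept its call, as given above. Ndufaf6 (0.37), the least abundant at 2.89 to 3.91 CPM, lost its call whichever library was left out (0.31 to 0.43), and Ndufaf1 (0.28) kept it only without GSI replicate 2, being at 0.29 without DMSO replicate 1, 0.26 without DMSO replicate 2 and 0.23 without GSI replicate 1. In all 5 genes both GSI libraries were above both DMSO libraries.

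Complex II, succinate dehydrogenase, joins the respiratory chain to the citrate cycle. Its flavoprotein gene Sdha was at 215 and 214 CPM with DMSO and 234 and 238 CPM with GSI. The libraries were separate, but the log2 fold change of 0.14 ± 0.0683 was not called (edgeR FDR = 0.108). The iron-sulfur subunit Sdhb was at 146 and 150 CPM against 186 and 180 CPM (0.31 ± 0.0687), and the membrane anchor Sdhd at 141 and 156 CPM against 180 and 201 CPM (0.36 ± 0.0761). Both were higher and kept their calls without any single library. The other anchor, Sdhc, was at 113 and 112 CPM against 128 and 140 CPM (0.25 ± 0.0713), a call lost without DMSO replicate 2 (0.24) or GSI replicate 2 (0.19).

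In complex III, 8 of 10 nuclear members were higher, with a median log2 fold change of 0.31. Uqcrq, a small subunit next to cytochrome b, had the largest change of the 75 subunits without tissue isoforms. It was at 49.4 and 58.3 CPM with DMSO and 97.8 and 88.7 CPM with GSI, a fold of 1.73 (log2 fold change 0.79 ± 0.0827, edgeR FDR = 1.99e-07). The small subunit Uqcr10 went from 48.5 and 55.5 CPM to 71.9 and 77.3 CPM (0.52 ± 0.0787). The catalytic pair also rose: cytochrome c1, Cyc1, from 65.0 and 72.5 CPM to 84.4 and 98.1 CPM (0.41 ± 0.0816), and the Rieske protein, Uqcrfs1, from 77.5 and 81.2 CPM to 95.6 and 107 CPM (0.35 ± 0.0748). All 4 genes kept their calls without any single library, while their mitochondrial partner mt-Cytb fell. Uqcc2, needed to make cytochrome b, was at 17.4 and 20.0 CPM against 24.2 and 23.2 CPM (0.34 ± 0.0881), and its call was lost without DMSO replicate 1 (0.24). The core proteins Uqcrc1 (0.22) and Uqcrc2 (0.21) and the small subunit Uqcrb (0.28) had the smallest called changes. Uqcrc1 lost its call without DMSO replicate 1 (0.19) or GSI replicate 2 (0.18), Uqcrc2 without DMSO replicate 2 (0.15), and Uqcrb without DMSO replicate 2 (0.23) or GSI replicate 1 (0.20). Uqcrh (0.14) and Uqcr11 (0.16) were not called. Uqcrh was at 0.23 without DMSO replicate 1, 0.05 without DMSO replicate 2, 0.06 without GSI replicate 1 and 0.22 without GSI replicate 2, called only in the last.

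In complex IV, 10 of 11 general nuclear subunits were higher, with a median of 0.28; Ndufa4 (0.09) was not called. Cox5a went from 122 and 132 CPM to 176 and 215 CPM, a log2 fold change of 0.62 ± 0.0846 (edgeR FDR = 6.68e-06). The noncoding gene Gm26631 lies on the opposite strand over 269 exon bases of Cox5a and had 32 and 26 counts with DMSO and 6 and 2 with GSI, against 5251 to 10614 counts for Cox5a. Cox5b was at 84.7 and 90.7 CPM against 121 and 109 CPM (0.39 ± 0.0748) and Cox6a1 at 136 and 154 CPM against 193 and 182 CPM (0.37 ± 0.0750). These 3 genes kept their calls without any single library. At the low end, Cox8a (0.19) lost its call without DMSO replicate 1 (0.13) or GSI replicate 1 (0.14), Cox6c (0.20) without DMSO replicate 2 (0.12) or GSI replicate 2 (0.16), and Cox7b (0.21) without DMSO replicate 1 (0.19) or DMSO replicate 2 (0.23). Cox7a2l, known as a factor for joining complexes III and IV, had a log2 fold change of 0.06 and was not called. It was at -0.02 without DMSO replicate 2 and -0.05 without GSI replicate 1. Whether Cox7a2l joins these complexes in the cells used was not tested.

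The tissue isoforms of complex IV were scarce. Cox6a2, the heart and muscle form of subunit 6a, had 35 and 66 counts with DMSO and 219 and 142 with GSI, or 0.813 and 1.16 CPM against 4.53 and 2.88 CPM. Both GSI libraries were above both DMSO libraries, at a fold of 3.67 (log2 fold change 1.88 ± 0.228, edgeR FDR = 1.43e-06), and the change was 1.51 to 2.18 without any single library. The GSI level was still a small part of that of Cox6a1, at 23.5 and 15.8 counts per 1000 Cox6a1 counts against 5.98 and 7.54 with DMSO. Itgad, which lies over 70 exon bases of Cox6a2 on the other strand, had at most 6 counts in a library. Cox7a1 (0.749 to 1.07 CPM) and Cox6b2 (0.0607 to 0.279 CPM) were not called. Cox4i2, a form linked to low oxygen, had 4 and 6 counts with DMSO and none with GSI, Ndufa4l2 had at most 3 counts, and Cox7b2, Cox8b and Cox8c had none, and all 5 were left out of the test.

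In complex V, 12 of 17 nuclear members were higher, with a median of 0.23. Atp5g3, which encodes the c subunit of the rotor ring, was at 127 and 129 CPM with DMSO and 163 and 206 CPM with GSI (log2 fold change 0.53 ± 0.0871, edgeR FDR = 5.74e-05). The fold change was 0.35 without GSI replicate 2 and 0.69 without GSI replicate 1, still called. Atp5g1, another gene for the same protein, was at 59.6 and 57.9 CPM against 69.4 and 81.1 CPM (0.36 ± 0.0792). Atp5k, a membrane subunit that joins synthase dimers, was at 49.7 and 54.6 CPM against 67.0 and 65.4 CPM (0.34 ± 0.0742). In the catalytic F1 head, 3 of 5 subunits were called: Atp5e (0.37), Atp5d (0.29) and the catalytic beta subunit Atp5b. Atp5e was at 0.23 without GSI replicate 2 and 0.49 without GSI replicate 1, still called. Atp5b was the nuclear member with the highest counts, at 730 and 729 CPM against 834 and 873 CPM (0.23 ± 0.0722), and its call was lost without DMSO replicate 1 (0.23), DMSO replicate 2 (0.22) or GSI replicate 2 (0.19). Of the Fo and stalk subunits, 9 of 10 were higher. The smallest of these were Atp5h (0.18), Atp5g2 (0.20), a further gene for the c subunit, and Atp5j (0.23). Atp5h kept its call only without GSI replicate 2, being at 0.21 without DMSO replicate 1 and at 0.15 without DMSO replicate 2 or GSI replicate 1. Atp5g2 kept it only without DMSO replicate 2, being at 0.14 without DMSO replicate 1, 0.21 without GSI replicate 1 and 0.18 without GSI replicate 2. Atp5j lost it without DMSO replicate 2 (0.21) or GSI replicate 2 (0.17). Atp5s (-0.18) and Atp5sl (0.04), named after the synthase but no subunits of it, were not called. Atp5s was at -0.04 without DMSO replicate 1 and -0.32 without DMSO replicate 2.

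**Figure D4:**
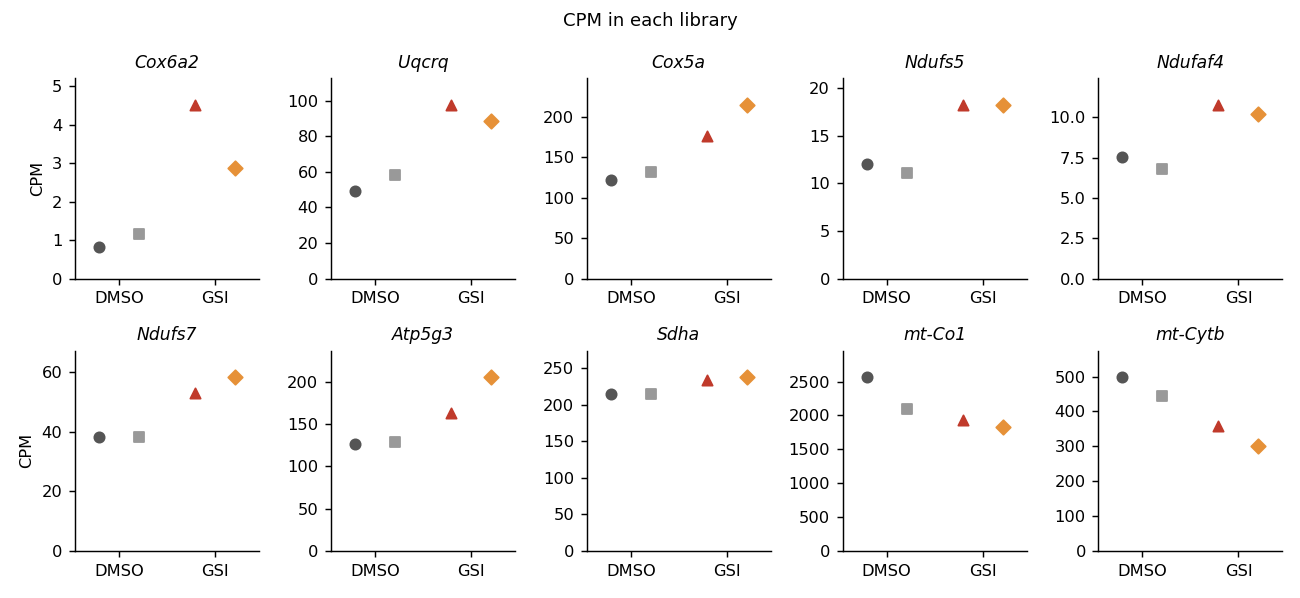
CPM in each library (vertical axes from 0, with a scale of their own in each panel) for 10 members, with DMSO libraries in grey and GSI libraries in red and orange. GSI libraries are above DMSO libraries in the 8 nuclear genes, from 3.67-fold for Cox6a2 to 1.10-fold for Sdha, which was not called, and below them in mt-Co1 and mt-Cytb.

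Nuclear members mostly have short transcripts, and fold changes in these libraries moved with transcript length. Among other protein-coding genes, the median log2 fold change was 0.23 where the longest transcript had up to 1000 bases, 0.18 for 1001 to 1500 bases, 0.12 for 1501 to 2500, 0.03 for 2501 to 4000, and -0.12 above 4000. The nuclear members in these classes had medians of 0.30, 0.27, 0.22, 0.25 and 0.39. In the shortest class, 33 of 38 nuclear members were called higher, beside 43.5% of all protein-coding genes of that length. From 1001 to 1500 bases 13 of 18 were called (33.0% of all), from 1501 to 2500 bases 11 of 19 (28.5%), from 2501 to 4000 bases 7 of 10 (20.3%) and above 4000 bases 3 of 4 (10.9%). The members' medians were above those of the other genes in all 5 classes, a difference that was not tested. With each library's trend with length and GC content removed, 61 nuclear members were higher, none was lower, and all 7 mitochondrial members were lower, with medians of 0.25 and -0.41 beside 0.06 over all genes. In that fit 23.3% of all genes were called higher and 16.8% lower, so that 58.1% of all calls were upward where 46.4% had been.

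**Figure D5:**
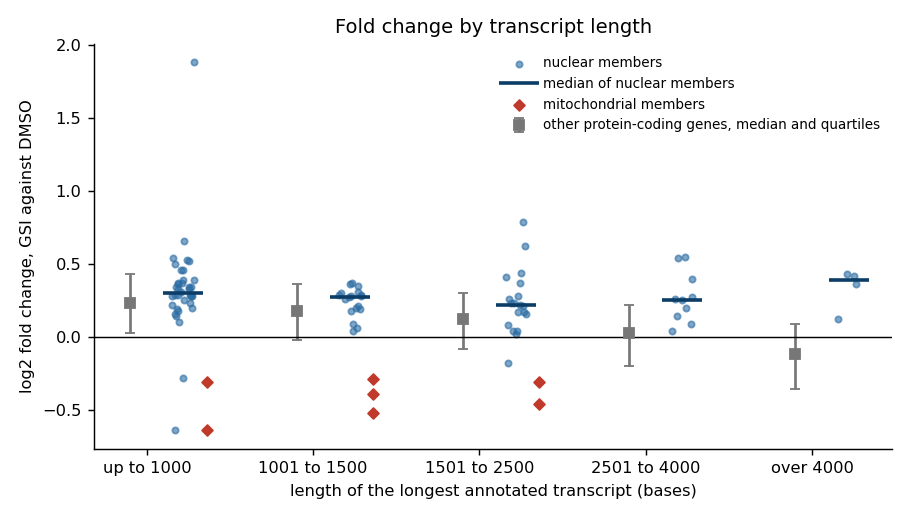
Log2 fold change with GSI against DMSO (vertical axis) by length of the longest annotated transcript (horizontal axis). Grey squares with bars are the median and quartiles of other protein-coding genes, which go from 0.23 in the shortest class to -0.12 in the longest; blue points and bars are nuclear members and their medians (0.22 to 0.39), and red diamonds are mitochondrial members, all below 0.

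Nuclear members were also divided by whether their counts could be shared with another gene. Of the 61 tested nuclear members with no exon of another gene on the opposite strand, 45 were higher, and of the 28 with such exons, 22. Of the 69 with under 10% of their windows in other genes, 51 were higher, and of the 20 with 10% or more, 16. None was lower in any of these 4 groups. Of all tested genes 19.0% were called higher, and the share among all genes with or without such exons or windows was not counted.

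The promoters of nuclear respiratory genes are known for binding sites of NRF1, of ETS factors such as GABP, and of YY1. RefSeq promoter sequences (GRCm38.p6, from 250 bases before to 50 after the start) were matched for 74 nuclear members and for 9401 tested genes, and searched on both strands. The NRF1 letters GCATGCGC occurred in 12 of the 74 members (16.2%) and in 6.10% of all. The ETS letters CCGGAAG occurred in 17 (23.0%) and in 20.6% of all, and the YY1 letters AAGATGGC in 10 (13.5%) and in 5.53% of all. The median log2 fold change was 0.29 in members with the NRF1 letters and 0.28 without, 0.27 and 0.29 for the ETS letters, and 0.28 and 0.28 for the YY1 letters. The differences between these medians were not tested. Ndufaf4 (chr4:24897833-24898082, plus strand) and Ndufa11 (chr17:56717512-56717761, plus strand) are the pair with the largest rises among the 12 with NRF1 letters, and Cox5a (chr9:57520982-57521231, plus strand) rose by 0.62 without them; all 3 were chosen after their values were seen. The 250 bases before each RefSeq start are shown, and capitals mark the NRF1 letters, which here overlap on both strands.
Ndufaf4: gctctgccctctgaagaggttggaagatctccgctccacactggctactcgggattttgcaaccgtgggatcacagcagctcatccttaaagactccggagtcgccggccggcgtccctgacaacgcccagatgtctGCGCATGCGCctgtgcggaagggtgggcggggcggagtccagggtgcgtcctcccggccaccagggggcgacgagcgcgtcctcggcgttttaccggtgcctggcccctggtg
Ndufa11: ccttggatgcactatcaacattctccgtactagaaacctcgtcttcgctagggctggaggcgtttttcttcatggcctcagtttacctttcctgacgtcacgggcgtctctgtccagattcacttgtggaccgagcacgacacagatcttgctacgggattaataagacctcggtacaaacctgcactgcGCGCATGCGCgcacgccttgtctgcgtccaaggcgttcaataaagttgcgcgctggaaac
Cox5a: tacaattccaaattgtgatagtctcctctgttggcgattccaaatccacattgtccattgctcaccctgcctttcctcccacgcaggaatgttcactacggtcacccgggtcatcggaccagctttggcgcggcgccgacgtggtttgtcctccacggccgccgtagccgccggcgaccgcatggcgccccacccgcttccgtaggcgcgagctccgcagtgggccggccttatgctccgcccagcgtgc

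Genes that act on the respiratory chain were then counted in the same fit, beside 19.0% of all genes called higher and 21.9% lower. Of 41 tested assembly factors and chaperones whose names fall outside the members' rule, 18 were higher and none lower, with a median of 0.23. The largest were Sdhaf1, which helps to load the iron-sulfur cluster of complex II, at 3.37 and 3.67 CPM against 6.35 and 6.32 CPM (0.84), and the copper carriers of complex IV Sco1, at 14.3 and 14.3 CPM against 24.4 and 23.6 CPM (0.74), and Cox17, at 20.0 and 20.1 CPM against 28.0 and 35.0 CPM (0.65). Of 23 genes of protein import, 15 were higher and none lower, with a median of 0.34. Hspa9, the matrix chaperone that pulls proteins in, went from 291 and 297 CPM to 520 and 460 CPM (0.74), Timm10 from 11.3 and 12.5 CPM to 19.5 and 17.4 CPM (0.63), and the scarce Timm8a1 from 0.837 and 0.811 CPM to 1.63 and 2.07 CPM (1.17).

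The nuclear genes for the mitochondrial ribosome and for mitochondrial DNA were counted apart from the ribosomal RNAs given above. Of 76 tested proteins of the mitochondrial ribosome, 48 were higher and none lower, with a median of 0.26 and with Mrpl12 (0.55), Mrpl57 (0.53) and Mrpl36 (0.53) at the top; Mrpl36 was at 0.33 without GSI replicate 2, still called. Of 28 tested genes for the copying, transcription and processing of mitochondrial DNA, 10 were higher and none lower, with a median of 0.15. Tefm, a transcription elongation factor, was at 4.67 and 4.76 CPM against 6.81 and 6.36 CPM (0.48), Fastk rose by 0.42 and the DNA-binding protein Ssbp1 by 0.40, or by 0.26 without GSI replicate 1. The packaging and transcription factor Tfam was at 13.5 and 11.9 CPM against 15.2 and 15.6 CPM and was higher (0.28, edgeR FDR = 0.0227), a call lost without DMSO replicate 2 (0.19) or GSI replicate 2 (0.26). The RNA polymerase Polrmt was at 8.46 and 9.55 CPM against 11.2 and 10.1 CPM and was not called (0.24, edgeR FDR = 0.0727). The cytosolic ribosomal proteins were counted after the other values were seen. Of 80 tested, 7 were higher and none lower, with a median of 0.08.

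Regulators of respiratory genes were mixed, with 2 of 10 higher and 5 lower. Myc, which promotes growth and mitochondrial gene expression, had a mean of 47.3 ± 3.86 CPM (SD, n = 2) with DMSO and of 18.3 ± 0.129 CPM with GSI (-1.37, edgeR FDR = 1.09e-10). Gabpa, the ETS subunit of GABP, was lower as well (-0.45). The nuclear receptor Esrra was at 52.1 and 52.2 CPM against 69.9 and 75.3 CPM (0.48), and the coactivator Ppargc1b at 7.32 and 7.51 CPM against 11.2 and 9.44 CPM (0.47). Nrf1 was not called (0.09), and Ppargc1a was near the floor with at most 0.0827 CPM.

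Neighbouring pathways of energy metabolism were counted in the same way. Of 17 citrate cycle and linked genes, 7 were higher and 1 lower, with a median of 0.15: Pdhb (0.35) and Dlat (0.32), subunits of pyruvate dehydrogenase, rose, and Suclg2 (-0.36) fell, though not without GSI replicate 1 (-0.25). Irg1, which makes itaconate, an inhibitor of succinate dehydrogenase, was among the most abundant at 4210 and 4470 CPM against 5000 and 4990 CPM (0.20, edgeR FDR = 0.0361), a call lost without DMSO replicate 1 (0.16) or DMSO replicate 2 (0.24). Of 12 electron carriers, side entries and inner membrane carriers, 6 were higher and 3 lower. Cytochrome c, Cycs, was at 96.7 and 92.0 CPM against 124 and 107 CPM (0.29), a call lost without GSI replicate 1 (0.18). The ADP/ATP carrier Slc25a5 rose by 0.32 and Etfb by 0.33, the latter not without DMSO replicate 1 (0.22). Ucp2, an inner membrane carrier, went down from 1080 and 1220 CPM to 822 and 809 CPM (-0.50). Of 18 glycolysis genes, 9 were higher and 3 lower, with a median of 0.17; Aldoa rose (0.43), while Hk2 (-0.41) and Pfkfb3 (-0.38), which act at controlled steps, fell.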

How the data were processed

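RNA of 16 labelled samples (2 groups of 2 replicates, 4 numbered samples each) was deposited by the authors as raw counts per gene, made with STAR (2.5.0a), Picard and HTSeq per the submitters' processing notes. The notes list both mm9 and mm10; 98.77% of gene IDs were in GENCODE M21 (mm10), used here for coordinates. Libraries were prepared with a stranded mRNA kit; the HTSeq mode and strand setting are not given in the sources used here. The numbered samples of a replicate differed by about sampling noise (chi-square per degree of freedom 1.007 to 1.034), were taken as runs of 1 library, which the labels do not state, and were summed. Genes passing filterByExpr were tested with edgeR (4.0.16; R 4.3.3; TMM, quasi-likelihood test, FDR under 0.05); the biological coefficient of variation was 0.05786. CPM are counts per 1000000 of the TMM-scaled library total. Fold changes are log2, GSI against DMSO, with n = 2 libraries in each group. The named genes were all mitochondrial members, Sdha to Sdhd, Cyc1, Uqcc2, tissue isoforms, the 3 largest and 3 smallest called changes in each part of a complex, and the 3 largest changes of each other list plus Irg1, Cycs, Tfam, Polrmt, Ppargc1a, Ppargc1b, Nrf1 and both ribosomal RNAs. Outside this rule, Gabpa, cell type markers and genes that overlap or share sequence with members were named. Others are named to account for uncalled members. The members and lists were chosen with earlier results of these data known. Alternatives were DESeq2 (1.42.0), other scalings and filters, a replicate block, separate runs, leaving out each library and, chosen after seeing the data, removal of length and GC trends. Counting limits cover counting error only.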

Additional observations from a re-analysis of the deposited data

How the results depend on the processing

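Under the alternatives run with an FDR of 0.05, nuclear members called ranged from 48 to 78 and mitochondrial members from 5 to 7. All calls of nuclear members were upward and all calls of mitochondrial members downward, except that Cox4i2 (4 and 6 counts with DMSO, none with GSI) was called lower with no filter on low counts. With an absolute log2 fold change above 1.5 as well, 385 genes, 1 member, 1 nuclear member and 0 mitochondrial members were left, by the stricter call itself. The highest count of nuclear members, 78, came from the 16 columns as separate samples, which takes the runs of 1 library as replicates. The next highest was 72, with the replicate block. DESeq2 called 56 nuclear and 5 mitochondrial members. Leaving out each library gave 4162 to 4978 genes, 55 to 67 members, 48 to 62 nuclear members and 5 to 7 mitochondrial members. The difference in the share of counts on mitochondrial members (GSI minus DMSO) was -0.0941 percentage points, -0.132 to -0.0566 with a library left out, and -0.0471 without mt-Co1 and mt-Nd6, which removes most of the counts; relative to the DMSO mean that is -24.7%, against -22.0%. Differences in the ratio within a complex ran from -0.383 to -0.267 for complex I, -0.307 to -0.238 for complex III and -0.776 to -0.390 for complex IV. Of 712 values of the 51 tested members that the naming rule gave, 638 kept their direction and side of the threshold, 71 lost the call in 25 genes, most often Atp5g2 (10), Ndufa9 (9), Atp5h (7) and Ndufaf6 (6), 2 gained it, and 1 changed sign: Cox6b2, never called, was -0.64, 0.04 without GSI replicate 2 and -1.95 without GSI replicate 1. Of the uncalled members named beside them, Cox7a2l (0.06) also changed sign without DMSO replicate 2 (-0.02) or GSI replicate 1 (-0.05), and Atp5sl (0.04) with the length and GC trends removed (-0.01). Uqcrh gained a call without GSI replicate 2 (0.22), Uqcr11 with the replicate block (0.16), and Uqcrh (0.15), Uqcr11 (0.17) and Ndufa4 (0.09) with the columns as separate samples. The cause of the other changes was not tested.

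The replicate numbers are not known to mark pairs: with 2 pairs, the correlation of same-numbered deviations was 0.1506. With the replicate block, 6444 genes, 79 members, 72 nuclear and 7 mitochondrial members were called, and with the length and GC trends removed as well, 6025, 75, 68 and 7. The 2 libraries in each group and the 3-count floor limit what can be said of the tissue isoforms.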
